A study of Homo sapiens with 6 samples.

Results

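The genes described here are those of the unfolded protein response and of protein folding in the endoplasmic reticulum (ER), measured by RNA sequencing in SW1353 cells, a human chondrosarcoma line. They were chosen by name: 40 symbols were listed and matched to the gene symbols of the count table. VIMP is an older symbol of SELENOS, so the list stands for 39 genes out of 60691 in the table, and 38 of them were among the 16591 genes with enough reads to be tested. The rule itself uses names and no measured values, but the names were put together with earlier results of these data known.

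All 6 libraries came from cells that had spent 48 h in 3% oxygen and had been transduced with a short hairpin RNA. The shSIRT1 group comprised 3 libraries with a hairpin labelled for SIRT1, a protein deacetylase, and the shfirefly group comprised 3 libraries with the firefly hairpin as control. The design text calls the samples biological replicates. Whether transduced cells were selected or cloned, and how the replicates were raised, is not given in the sources used here. The p-values set the group difference against the spread between these samples. They cannot tell an effect of the hairpin apart from one of the transduced cultures that the libraries came from.

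SIRT1 averaged 13.6 ± 0.953 CPM in shSIRT1 against 24.9 ± 0.984 CPM in shfirefly (CPM, each count divided by the scaled library size and put on a common base of 1e+06 reads; SD, n = 3 each). EPAS1, which encodes HIF-2α, averaged 233 ± 10.5 CPM in shSIRT1 against 456 ± 40.8 CPM in shfirefly. The treatment protocol names EPAS1 as the hairpin's target where the sample names and the design text name SIRT1, and both transcripts fell, so the levels do not settle which gene the hairpin was made against. Of 10 chondrocyte markers 4 reached a mean of 1 CPM. SOX9 stood at 53.1 CPM in shSIRT1 against 43.7 CPM in shfirefly, while type II collagen (COL2A1) was at 0.332 and 0.0340 CPM. Others of these markers moved apart: MATN3 rose by 0.35 on the log2 scale (adjusted p = 0.032), whereas HAPLN1 fell by 0.91 (adjusted p = 1.9e-06) and ACAN by 1.16 (adjusted p = 0.0018). Summed, and mostly through SOX9, the 10 markers came to 63.1 to 64.9 CPM in shSIRT1 and 55.7 to 62.1 CPM in shfirefly, and COL9A1 was at 0 in both groups. None of 4 immune and none of 3 endothelial markers reached that level. Library totals ran from 24993064 to 29564361 counts in shSIRT1 and from 28556696 to 32044191 counts in shfirefly.

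The ER is where secreted and membrane proteins enter the secretory pathway, are folded, are joined by disulfide bonds and receive N-linked sugars. When unfolded proteins accumulate there, the membrane sensors IRE1 (ERN1), ATF6 and PERK signal to the nucleus, and the resulting program raises chaperones, folding enzymes and the machinery that exports hopeless proteins for degradation. Chondrocytes secrete large amounts of collagen and proteoglycan and are known to depend on this machinery.

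Most of these genes were lower in shSIRT1, by modest amounts. Lower levels were called for 27 of the 38 tested genes and higher levels for 6, and 5 were not called (edgeR quasi-likelihood test, Benjamini-Hochberg adjusted p under 0.05 over all genes tested). Among all genes tested, 52.8% were called in either direction, 26.0% lower and 26.8% higher. The median log2 fold change was -0.24 over the 38 genes and 0.0047 over all genes tested. No member changed by as much as 2-fold: the range ran from -0.67 (OS9) to 0.61 (EDEM3), whereas 4.26% of all genes tested fell and 2.19% rose at least 2-fold. In CPM, 34 of the 38 genes had all libraries of 1 group above all of the other, against 59.7% of all genes tested. With scaling by library totals alone, which moved the median of all genes tested to 0.13, 20 members fell and 8 rose. Without shSIRT1 replicate 2 only 3 members rose (EDEM3, SDF2L1 and MANF), and 25 fell.

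**Figure D1:**
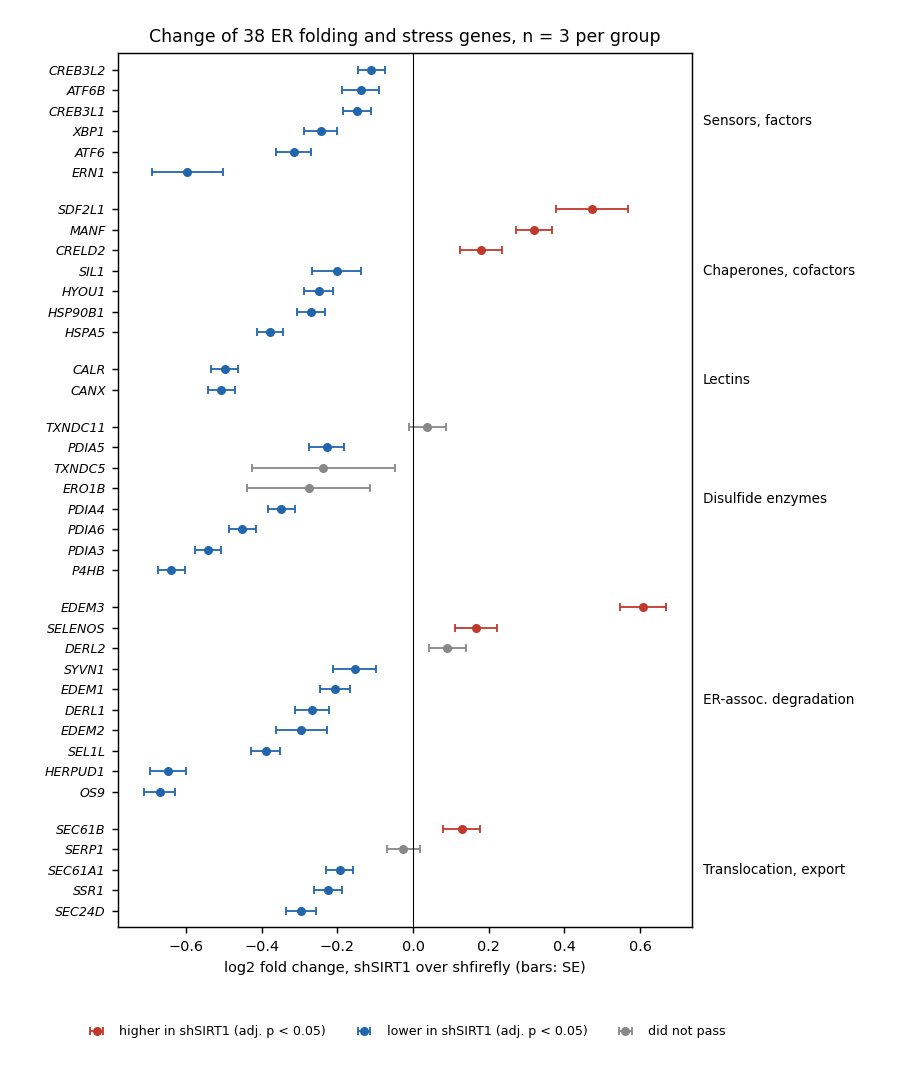
Log2 fold change of the 38 tested genes, shSIRT1 over shfirefly, with bars for 1 standard error and genes grouped by role (n = 3 libraries per group). Blue points (27 genes) were lower and red points (6 genes) higher in shSIRT1 at an adjusted p under 0.05, and grey points (5 genes) did not pass. The lectin chaperones and most disulfide enzymes lie left of 0, while SDF2L1, MANF, CRELD2 and EDEM3 lie to the right.

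Summed over the 39 genes, the transcripts made up 11970, 12020 and 11840 CPM in the shSIRT1 libraries, against 15920, 16090 and 15530 CPM in the shfirefly libraries, a ratio of 0.754. No shSIRT1 library reached the lowest shfirefly library. The ratio was lowest for the 8 disulfide enzymes (0.689; 3666 ± 44.1 CPM in shSIRT1 against 5320 ± 165 CPM in shfirefly, SD, n = 3 each) and for the 2 lectin chaperones (0.707). It was 0.792 for the 11 degradation genes, 0.817 for the 7 chaperones and cofactors, 0.883 for the 5 translocation and export genes and 0.884 for the 6 sensors and transcription factors. These sums are led by abundant genes: P4HB alone gave 1673 CPM of the disulfide sum in shSIRT1 and 2603 CPM in shfirefly. By median log2 fold change the order differed, with the lectin chaperones lowest (-0.50) and the disulfide enzymes at -0.31. Of 5 mesenchymal markers 4 also fell, while COL3A1, at about 1.4 CPM, had a log2 fold change of -0.089 (adjusted p = 0.78). The list, mostly VIM and COL1A1, had a sum of about 10300 CPM in each shSIRT1 library and of 13000 to 14000 CPM in the shfirefly libraries, and 2 of 5 epithelial markers reached 1 CPM, with a list sum of 356 to 373 CPM in shSIRT1 and of 308 to 319 CPM in shfirefly. Their part in these results was not tested. Counts are relative to the library, so fewer cells with a transcript and less of it per cell cannot be told apart.

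**Figure D2:**
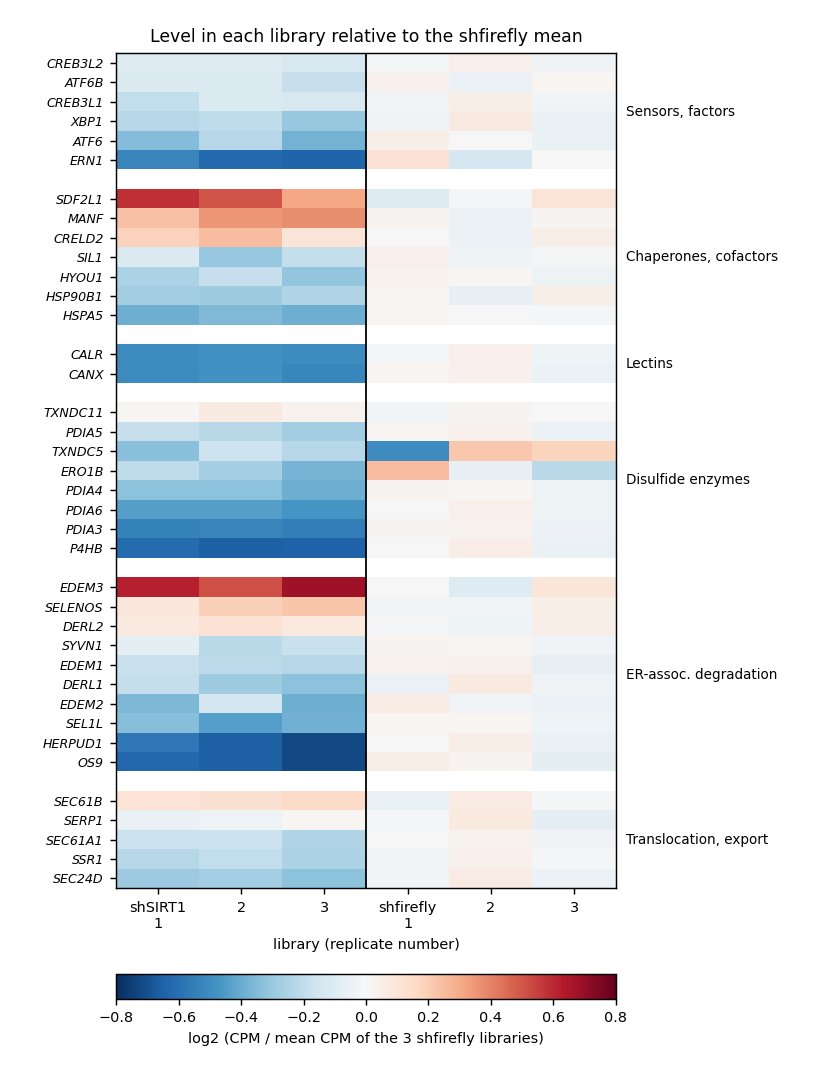
Level of each tested gene in each library as log2 of its CPM over the mean CPM of the 3 shfirefly libraries, shSIRT1 libraries on the left. Blue is lower and red is higher than the shfirefly mean. The 3 shSIRT1 columns share their colours for nearly every gene, and TXNDC5 and ERO1B, at about 3 CPM, vary most among the shfirefly libraries.

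All 6 sensors and transcription factors of the list fell, but under library totals alone CREB3L2 stood at 0.012 and only 3 of the 6 passed the test. The gene of the sensor PERK, EIF2AK3, is not among the 6 and did not pass (adjusted p = 0.52). ERN1 encodes IRE1, the kinase and endoribonuclease that splices XBP1 mRNA. It had 9.09, 8.55 and 8.44 CPM in the shSIRT1 libraries, against 14.2, 12.0 and 13.2 CPM in the shfirefly libraries. The groups were well apart, and the change was 1.51-fold down (log2 fold change of -0.60 with SE 0.09 and adjusted p = 1.4e-05). ATF6 encodes the sensor that is cut in the Golgi to release a transcription factor. Its level was 77.9, 84.6 and 76.4 CPM in shSIRT1, against 102.6, 99.1 and 95.6 CPM in shfirefly (log2 fold change of -0.32 with SE 0.05 and adjusted p = 6.3e-06). XBP1, the transcription factor that IRE1 activates, stood at 104, 106 and 98.8 CPM in shSIRT1, against 120.0, 128 and 118 CPM in shfirefly (log2 fold change of -0.24 with SE 0.04 and adjusted p = 7.1e-05). The counts are per gene and do not separate the spliced from the unspliced XBP1 mRNA.

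ATF6B, the paralogue of ATF6, and the OASIS-family factors CREB3L1 and CREB3L2 changed the least of the 6. CREB3L1, a membrane-bound factor known for driving type I collagen genes in mouse bone, had 255, 269 and 267 CPM in shSIRT1, against 287, 302 and 287 CPM in shfirefly (log2 fold change of -0.15 with SE 0.04 and adjusted p = 0.0020). CREB3L2, which in mouse chondrocytes raises the secretory machinery, had a log2 fold change of -0.11 ± 0.04 SE (adjusted p = 0.015), and ATF6B one of -0.14 ± 0.05 SE (adjusted p = 0.023). The calls for these 3 genes were lost with library totals alone (adjusted p of 0.53 to 0.79) and with an offset for GC content and exon length (0.084 to 0.79). Those for ATF6B and CREB3L2 were also lost on leaving out certain single libraries, namely shSIRT1 replicate 3 for both (0.10 and 0.062), shfirefly replicate 1 for ATF6B (0.076) and shfirefly replicate 2 for CREB3L2 (0.064). The ATF6B call was lost as well under DESeq2 (0.064) and with no filter on low counts (0.069).

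The HSP70- and HSP90-type chaperones and their cofactors divided: HSPA5, HSP90B1, HYOU1 and SIL1 fell, while SDF2L1, MANF and CRELD2 rose. HSPA5 encodes BiP, the ER HSP70 that binds unfolded chains and holds the sensors inactive. It stood at 1183, 1217 and 1184 CPM in shSIRT1, against 1568, 1550 and 1539 CPM in shfirefly. The libraries of a group lay close together, and the level was 1.30-fold lower (log2 fold change of -0.38 with SE 0.03 and adjusted p = 5.6e-09). HSP90B1 (GRP94), the ER HSP90, had 1374, 1369 and 1410 CPM in shSIRT1, against 1687, 1597 and 1720 CPM in shfirefly (log2 fold change of -0.27 with SE 0.04 and adjusted p = 2.1e-06). HYOU1 and SIL1, nucleotide exchange factors that make BiP release its client, had log2 fold changes of -0.25 ± 0.04 SE (adjusted p = 1.6e-05) and -0.20 ± 0.06 SE (adjusted p = 0.012). SIL1 did not pass without shSIRT1 replicate 2 (adjusted p = 0.081), with library totals alone (0.31) or with the GC and length offset (0.37).

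SDF2L1, MANF and CRELD2 are small proteins of the ER lumen that are known as sharply induced targets of the unfolded protein response. SDF2L1, which works with ER J-domain proteins to keep clients soluble, had 15.1, 14.2 and 12.5 CPM in shSIRT1, against 9.35, 9.99 and 10.8 CPM in shfirefly. Every shSIRT1 library was above every shfirefly library, with a 1.39-fold higher level (log2 fold change of 0.47 with SE 0.09 and adjusted p = 0.00021). MANF, a BiP-binding protein that is also secreted as a survival factor, stood at 73.6, 79.8 and 80.8 CPM in shSIRT1, against 63.5, 60.4 and 63.6 CPM in shfirefly (log2 fold change of 0.32 with SE 0.05 and adjusted p = 7.4e-06). CRELD2 had 42.9, 44.7 and 40.4 CPM in shSIRT1, against 37.7, 36.4 and 39.0 CPM in shfirefly (log2 fold change of 0.18 with SE 0.06 and adjusted p = 0.0095). CRELD2 did not pass without shSIRT1 replicate 2 (adjusted p = 0.063). Its groups did not overlap, but the nearest libraries, at 40.4 CPM in shSIRT1 against 39.0 CPM in shfirefly, lay close together.

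The promoters of HSPA5 and HERPUD1, which fell, and of CRELD2 and SDF2L1, which rose, are shown because each holds an element through which ATF6 and the CCAAT-binding factor NF-Y are known to act. The windows are RefSeq sequences of GRCh38.p14 from 250 bases before to 50 bases after the start site, on the gene's strand from 5′ to 3′, with the fixed bases of the element in capitals. They lie at chr9:125241294-125241593 (HSPA5, reverse strand), chr16:56931892-56932191 (HERPUD1, forward strand), chr22:49918384-49918683 (CRELD2, forward strand) and chr22:21642052-21642351 (SDF2L1, forward strand).
HSPA5: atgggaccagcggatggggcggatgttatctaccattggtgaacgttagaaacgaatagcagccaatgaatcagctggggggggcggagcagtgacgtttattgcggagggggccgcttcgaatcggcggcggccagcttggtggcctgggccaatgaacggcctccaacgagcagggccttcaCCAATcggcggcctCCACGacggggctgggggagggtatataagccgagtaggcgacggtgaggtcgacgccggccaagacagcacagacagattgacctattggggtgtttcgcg
HERPUD1: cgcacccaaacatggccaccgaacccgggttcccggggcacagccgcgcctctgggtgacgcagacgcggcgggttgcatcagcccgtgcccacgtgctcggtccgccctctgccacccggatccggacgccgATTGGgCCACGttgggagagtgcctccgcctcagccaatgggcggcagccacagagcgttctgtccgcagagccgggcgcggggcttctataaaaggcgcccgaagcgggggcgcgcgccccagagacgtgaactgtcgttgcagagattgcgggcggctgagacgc
CRELD2: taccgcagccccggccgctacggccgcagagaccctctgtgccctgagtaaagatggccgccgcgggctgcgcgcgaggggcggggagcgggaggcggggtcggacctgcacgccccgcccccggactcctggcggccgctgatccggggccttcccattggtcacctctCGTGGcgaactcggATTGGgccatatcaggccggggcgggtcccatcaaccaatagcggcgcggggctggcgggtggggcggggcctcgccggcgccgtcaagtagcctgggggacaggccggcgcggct
SDF2L1: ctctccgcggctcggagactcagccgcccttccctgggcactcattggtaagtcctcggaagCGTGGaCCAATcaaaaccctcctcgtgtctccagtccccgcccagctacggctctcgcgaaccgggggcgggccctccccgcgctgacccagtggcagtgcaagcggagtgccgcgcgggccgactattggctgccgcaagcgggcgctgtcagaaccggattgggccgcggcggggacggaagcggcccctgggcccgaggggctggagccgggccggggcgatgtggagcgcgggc

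The motif searched for in HSPA5 and CRELD2 is the ER stress element ERSE (CCAAT and CCACG with any 9 bases between) and that in HERPUD1 and SDF2L1 is ERSE-II (ATTGG and CCACG with any 1 base between), each on both strands. A window was matched for 35 of the 39 genes, and DERL1, DERL3, PDIA3 and SEC24D were not analysed here. ERSE was found in 9 of the 35 genes (25.7%) and in 0.0916% of the 27305 genes with a window. ERSE-II was found in 3 of the 35 (8.57%) and in 0.0696% of all. The genes were chosen by name for this response, so the higher shares describe the list and are not a result of these data. The ERSE matches, with the fixed bases in capitals and written as CGTGG first where they lie on the opposite strand, compare as follows.
CALR: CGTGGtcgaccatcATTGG
CANX: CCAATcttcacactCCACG
CRELD2: CGTGGcgaactcggATTGG
ERO1B: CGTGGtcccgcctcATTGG
HSP90B1: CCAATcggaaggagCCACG
HSP90B1: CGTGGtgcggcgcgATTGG
HSPA5: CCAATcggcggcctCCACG
PDIA6: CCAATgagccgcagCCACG
SERP1: CGTGGagacagcgaATTGG
XBP1: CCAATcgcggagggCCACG
The ERSE-II matches were as follows.
HERPUD1: ATTGGgCCACG
HYOU1: CGTGGtCCAAT
HYOU1: CGTGGtCCAAT
SDF2L1: CGTGGaCCAAT
The match of CANX lay across a start site of that gene, from -9 to 10. Among the ERSE and ERSE-II matches wholly upstream of a start site that of XBP1 was nearest, with its last base at -34, and that of HSPA5 spanned -66 to -48. Of the 12 genes with either element 8 fell (CALR, CANX, HERPUD1, HSP90B1, HSPA5, HYOU1, PDIA6 and XBP1), 2 rose (CRELD2 and SDF2L1) and 2 did not pass (ERO1B and SERP1). Genes with these letters thus moved in both directions. The shorter core TGACGTG, which XBP1 and ATF6 are known to bind, was found in 4 of the 35 genes (11.4%; HYOU1, SEC61A1, TXNDC5 and TXNDC11) and in 2.40% of all, and in HYOU1 it overlaps an ERSE-II match. Of the 20 members with a window and no match to any of these motifs, 15 fell, 4 rose and 1 did not pass, so falls were not particular to genes with a match. A match of letters is a description and does not show binding.

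The lectin chaperones fell together. CALR and CANX encode calreticulin and calnexin, which hold glycoproteins by their glucose-trimmed sugars until they are folded. CALR had 1779, 1799 and 1775 CPM in shSIRT1, against 2506, 2589 and 2464 CPM in shfirefly, 1.41-fold lower (log2 fold change of -0.50 with SE 0.03 and adjusted p = 1.2e-10). CANX stood at 951, 964 and 939 CPM in shSIRT1, against 1363, 1386 and 1305 CPM in shfirefly (log2 fold change of -0.51 with SE 0.04 and adjusted p = 1.2e-10). Spread within a group was small against the gap for both genes.

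Among the 8 disulfide enzymes 5 fell and 3 did not pass. With library totals alone 5 fell and TXNDC11 rose (0.16, adjusted p = 0.0087), and with the GC and length offset 6 fell, ERO1B among them (-0.47, adjusted p = 0.023), and TXNDC11 rose (0.12, adjusted p = 0.045). P4HB encodes protein disulfide isomerase, which also serves as the beta subunit of the collagen prolyl 4-hydroxylase. It had 1701, 1658 and 1660 CPM in shSIRT1, against 2606, 2699 and 2505 CPM in shfirefly, 1.56-fold lower (log2 fold change of -0.64 with SE 0.04 and adjusted p = 5.5e-12). PDIA3 (ERp57), the isomerase that works with both lectin chaperones, stood at 823, 829 and 814 CPM in shSIRT1, against 1215, 1218 and 1159 CPM in shfirefly (log2 fold change of -0.54 with SE 0.03 and adjusted p = 3.3e-11). Thus the lectins and their partner isomerase had changes of like size, which was not particular to them. ERN1 (-0.60) and the mesenchymal marker COL1A2 (-0.53) had log2 fold changes near theirs. PDIA6 fell by 0.45 and PDIA4 by 0.35 on the log2 scale (SE 0.04 each), and PDIA5, a less abundant member, by 0.23 (SE 0.05). TXNDC11, a membrane thioredoxin-like protein, averaged 46.6 ± 1.06 CPM in shSIRT1 against 45.4 ± 0.753 CPM in shfirefly (SD, n = 3 each), with a 95% interval of the log2 difference from -0.059 to 0.134.

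TXNDC5 and ERO1B were scarce, and their differences did not pass. ERO1B, an oxidase that refreshes protein disulfide isomerase, had 2.97, 2.84 and 2.64 CPM in shSIRT1, against 4.04, 3.25 and 2.94 CPM in shfirefly (log2 fold change of -0.28 with SE 0.16 and adjusted p = 0.16). Its groups overlapped at the lowest shfirefly library. TXNDC5 (ERp46), a further disulfide isomerase, had 2.35, 2.64 and 2.52 CPM in shSIRT1, against 2.08, 3.44 and 3.36 CPM in shfirefly (log2 fold change of -0.24 with SE 0.19 and adjusted p = 0.31). TXNDC5 lies within the read-through gene BLOC1S5-TXNDC5 on the same strand, which is listed with 0 counts, and how shared reads were assigned is not given in the sources used here, so the level of TXNDC5 is uncertain.

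ER-associated degradation takes misfolded proteins out of the ER to the proteasome. Of the 10 tested genes 7 fell, 2 rose and DERL2 did not pass. OS9, a lectin that reads trimmed mannose on misfolded glycoproteins, had the largest fall of all members. It stood at 190, 186 and 178 CPM in shSIRT1, against 304, 298 and 278 CPM in shfirefly, 1.59-fold lower (log2 fold change of -0.67 with SE 0.04 and adjusted p = 1.6e-11), and 9.41% of all genes tested had a lower log2 fold change. HERPUD1, an ER membrane protein of the same complex and a strongly stress-induced gene, had 63.9, 60.5 and 57.7 CPM in shSIRT1, against 94.97, 98.73 and 91.75 CPM in shfirefly (log2 fold change of -0.65 with SE 0.05 and adjusted p = 2.5e-10). SEL1L, the scaffold of the ubiquitin ligase, had 195, 181 and 188 CPM in shSIRT1, against 249.2, 249.3 and 240.5 CPM in shfirefly (log2 fold change of -0.39 with SE 0.04 and adjusted p = 2.2e-08). The ligase itself, SYVN1 (HRD1), changed less, with 34.1 ± 1.73 CPM in shSIRT1 against 37.9 ± 0.695 CPM in shfirefly (SD, n = 3 each; log2 fold change of -0.15 with SE 0.06 and adjusted p = 0.025). Its call was lost under DESeq2 (adjusted p = 0.077), with no filter (0.065), with library totals alone (0.64) and with the GC and length offset (0.36). It was also lost without shSIRT1 replicate 2 or 3 (0.11 and 0.079) and without shfirefly replicate 1 or 2 (0.069 and 0.064).

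The 3 EDEM genes, which encode the mannosidase-like proteins that mark glycoproteins for degradation, moved in different directions. EDEM3 had the largest rise of all members, with 49.2, 45.7 and 51.2 CPM in shSIRT1, against 31.9, 29.7 and 34.2 CPM in shfirefly (1.52-fold higher, log2 fold change of 0.61 with SE 0.06 and adjusted p = 2.7e-08). EDEM2 had 27.3, 31.7 and 26.7 CPM in shSIRT1, against 36.7, 34.5 and 34.0 CPM in shfirefly (log2 fold change of -0.29 with SE 0.07 and adjusted p = 0.00074). EDEM1, a known XBP1 target, averaged 145 ± 2.59 CPM in shSIRT1 against 167 ± 6.37 CPM in shfirefly (SD, n = 3 each; log2 fold change of -0.21 with SE 0.04 and adjusted p = 0.00014), and did not pass with library totals alone (adjusted p = 0.055). None of the groups of these 3 genes overlapped.

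DERL1 and DERL2 encode derlins, membrane proteins of the exit channel. DERL1 fell, with 98.9, 92.9 and 90.2 CPM in shSIRT1, against 109, 119 and 111 CPM in shfirefly (log2 fold change of -0.27 with SE 0.05 and adjusted p = 3.7e-05). For DERL2 the log2 difference was 0.091 with a 95% interval from -0.0053 to 0.187 (adjusted p = 0.13), and it was 0.21 with library totals alone (adjusted p = 0.0012) and turned to -0.044 with the GC and length offset (adjusted p = 0.48). DERL3 had 1 count in shSIRT1 replicate 1 and 0 counts in the other 5 libraries, where a count of 0 allows up to 0.0968 to 0.115 CPM (3 counts per library, counting error only), and was not tested. SELENOS, a selenoprotein that links derlins to the p97 ATPase, rose, with 37.5, 40.1 and 41.0 CPM in shSIRT1, against 34.6, 34.7 and 36.3 CPM in shfirefly (log2 fold change of 0.17 with SE 0.06 and adjusted p = 0.016). That call was lost without shSIRT1 replicate 2 or 3 (adjusted p of 0.055 and 0.074) and without shfirefly replicate 1 or 2 (0.077 and 0.052).

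Of the 5 genes of translocation and export 3 fell, 1 rose and SERP1 did not pass. SEC61A1 encodes the channel through which nascent chains enter the ER. It had 528, 527 and 503 CPM in shSIRT1, against 592, 606 and 584 CPM in shfirefly (log2 fold change of -0.19 with SE 0.04 and adjusted p = 9.3e-05; adjusted p = 0.055 with library totals alone). SEC61B, the small beta subunit of the same channel, had 56.9, 57.3 and 58.6 CPM in shSIRT1, against 50.6, 55.3 and 52.2 CPM in shfirefly (log2 fold change of 0.13 with SE 0.05 and adjusted p = 0.030). The SEC61B call held only narrowly: it was lost under DESeq2 (adjusted p = 0.089) and on leaving out any single library except shfirefly replicate 2 (0.052 to 0.21). SSR1, a subunit of the translocon-associated TRAP complex, fell by 0.22 on the log2 scale (SE 0.04, adjusted p = 2.5e-05). SEC24D, a cargo adaptor of the COPII coat that is needed for procollagen export, had 135, 136 and 131 CPM in shSIRT1, against 162, 172 and 159 CPM in shfirefly (log2 fold change of -0.30 with SE 0.04 and adjusted p = 2.2e-06). SERP1, which steadies membrane proteins during translocation, averaged 111 ± 2.72 CPM in shSIRT1 against 113 ± 5.90 CPM in shfirefly (SD, n = 3 each; 95% interval of the log2 difference from -0.112 to 0.059).

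Levels between genes were compared per length of merged exons (RPKM, the CPM divided by exon length in kilobases). CALR was the most abundant member, at 657 ± 4.89 RPKM in shSIRT1 and 928 ± 23.6 RPKM in shfirefly (SD, n = 3 each). P4HB followed with 315 ± 4.55 and 491 ± 18.3 RPKM, then HSPA5 with 306 ± 5.03 and 397 ± 3.81 RPKM and HSP90B1 with 295 ± 4.71 and 355 ± 13.5 RPKM, shSIRT1 first in each pair. Further down, PDIA4 (211 ± 4.99 RPKM) and CANX (217 ± 6.71 RPKM) did not differ beyond their spread in shfirefly, whereas in shSIRT1 PDIA4 (166 ± 4.06 RPKM) lay above CANX (152.6 ± 1.958 RPKM). The sensors were far scarcer than the chaperones: ERN1 was at 0.8003 ± 0.0322 RPKM in shSIRT1 and 1.21 ± 0.104 RPKM in shfirefly, and ATF6 at 10.1 ± 0.554 and 12.6 ± 0.444 RPKM in the same order. CREB3L1, at 65.3 ± 1.90 RPKM in shSIRT1 and 72.3 ± 2.05 RPKM in shfirefly, was the most abundant of the transcription factors on the list.

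**Figure D3:**
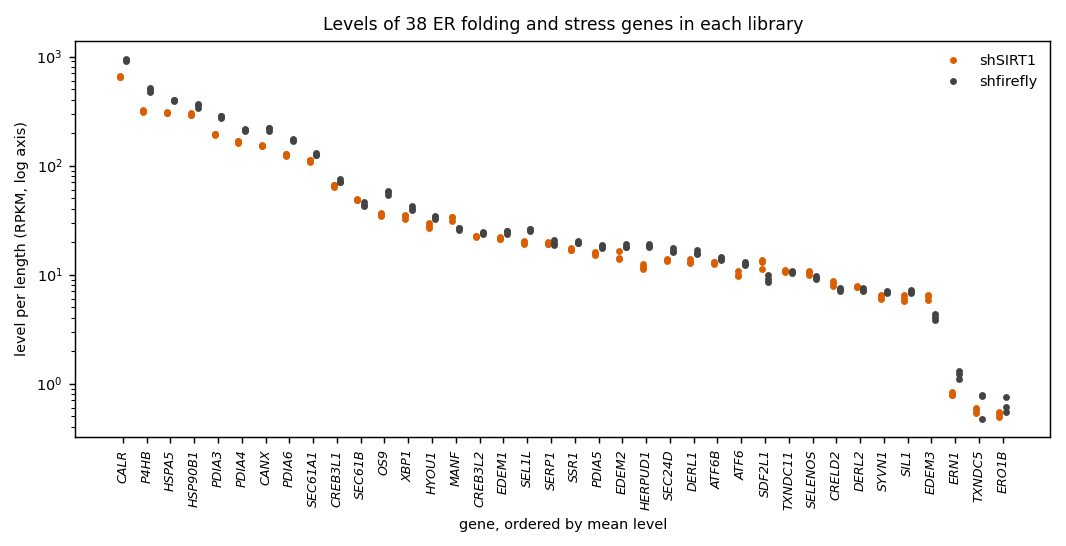
Level per length of the 38 tested genes in each library (RPKM, log axis), genes ordered by their mean, shSIRT1 points left of shfirefly points. The order runs from CALR (657 RPKM in shSIRT1 and 928 RPKM in shfirefly on average) to ERO1B (0.525 and 0.636 RPKM), and the 9 most abundant genes all have their shSIRT1 points below their shfirefly points.

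The falls were most frequent among members with many reads, as they were among all genes. All 9 members with a mean of 500 CPM or more fell, with a median log2 fold change of -0.45, while among all 259 genes tested at that read abundance 65.3% fell, with a median of -0.25. Of the 11 members from 100 to 500 CPM 10 fell and 1 did not pass, against 41.1% lower among the 1798 genes of that class. From 10 to 100 CPM 8 of 16 members fell and 6 rose, so that all rises lay in this class, where 27.0% of 7275 genes fell and 37.4% rose. These classes use CPM without correction for length, and the part of read abundance in the members' direction was not tested.

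**Figure D4:**
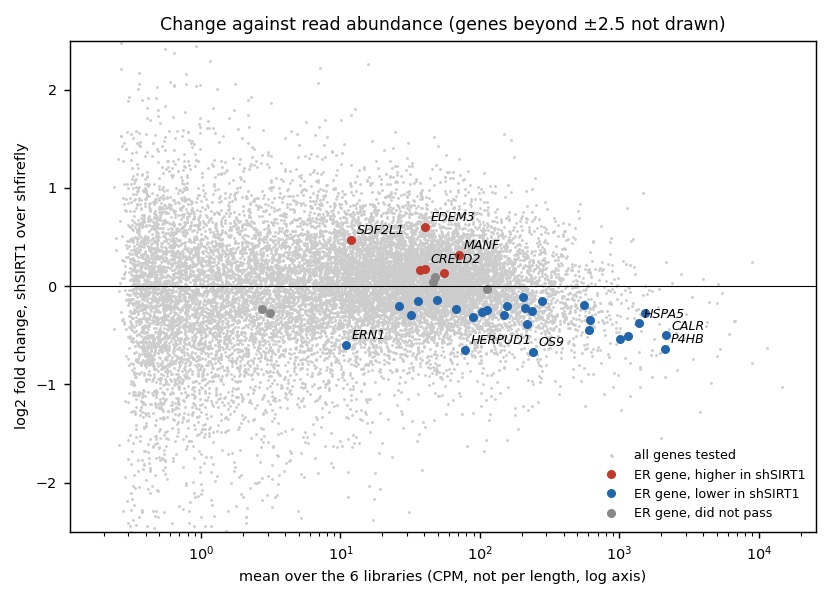
Log2 fold change, shSIRT1 over shfirefly, against the mean CPM over the 6 libraries (log axis), for all genes tested (small grey dots, those beyond ±2.5 not drawn) and the 38 ER genes (large points, coloured by call). The ER genes at 500 CPM or more (9 of 9 lower) lie below 0 where the cloud of all genes also tilts downwards (65.3% lower), and the 6 higher genes lie between 10 and 100 CPM.

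Further genes of the pathway were taken from 11 lists that hold 177 genes without the members, of which 173 were tested. Among these 72 fell (41.6%), 36 rose and 65 did not pass, with a median log2 fold change of -0.052. With library totals alone 57 fell and 70 rose (median 0.069), and with the GC and length offset 83 fell and 38 rose (median -0.11), so the balance of this larger set depended on the scaling. The counts of each list below stand against 26.0% lower and 26.8% higher among all genes tested. The PERK arm had 5 of 10 lower and 2 higher (5 and 4 with library totals alone). EIF2AK3, named because it encodes PERK itself, averaged 27.4 CPM in shSIRT1 against 28.4 CPM in shfirefly. Its log2 fold change was -0.052 ± 0.063 SE and did not pass (adjusted p = 0.52). DDIT3 (CHOP), a transcription factor of unresolved stress, averaged 17.9 ± 0.220 CPM in shSIRT1 against 53.5 ± 4.14 CPM in shfirefly (SD, n = 3 each; log2 fold change of -1.58 with SE 0.06 and adjusted p = 3.0e-14). TRIB3, a pseudokinase induced with it, fell by 1.30 on the log2 scale (SE 0.05). The other genes of the arm that fell were PPP1R15A (-1.09 ± 0.04 SE), CHAC1 (-0.74 ± 0.07 SE) and ATF4 (-0.67 ± 0.04 SE), named after their values were seen. EIF2S1, which encodes the translation factor subunit that PERK phosphorylates, rose (0.38 ± 0.04 SE), and PPP1R15B, a phosphatase subunit that reverses that mark, rose slightly (0.14 ± 0.05 SE, adjusted p = 0.033), a call lost under DESeq2 (adjusted p = 0.090), with the GC and length offset (0.12) and on leaving out shSIRT1 replicate 1 or 2 (0.076 and 0.15) or shfirefly replicate 1 or 3 (0.24 and 0.073).

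Of 9 J-domain co-chaperone genes 5 fell and 1 rose (4 and 3 with library totals alone). The gene that rose was DNAJB11 (ERdj3, a partner of BiP and of SDF2L1; 44.8 ± 1.73 CPM in shSIRT1 against 34.8 ± 0.902 CPM in shfirefly, SD, n = 3 each). DNAJC18 fell by 0.67 and DNAJC1 by 0.57 on the log2 scale. Of 17 further genes listed with the disulfide isomerases and ER oxidases 10 fell and 3 rose (8 and 5 with library totals alone). That list also holds genes of other kinds, such as SUMF1, and TMED10, which is counted among the COPII and export genes as well. ERO1A, the other ER oxidase and a known hypoxia-inducible gene, was much more abundant than ERO1B and averaged 682 ± 16.3 CPM in shSIRT1 against 1273 ± 31.2 CPM in shfirefly (SD, n = 3 each; log2 fold change of -0.90 with SE 0.04 and adjusted p = 2.5e-14). SUMF1, the sulfatase-activating enzyme, fell by 0.44, while TXNDC16 (0.49) and VKORC1L1 (0.32) rose on the log2 scale. Of 26 further degradation genes 11 fell and 7 rose, and with library totals alone 7 fell and 13 rose. The genes that rose included UBE2G2 (0.43 ± 0.05 SE), a ubiquitin-conjugating enzyme, and NPLOC4 (0.43 ± 0.04 SE), a cofactor of the p97 ATPase. VCP, which encodes p97 itself, and UFD1, its other cofactor, were chosen after their values were seen. They had log2 fold changes of 0.39 ± 0.04 SE and 0.34 ± 0.05 SE, and were also higher with each other scaling. SEL1L3 (-0.82 ± 0.04 SE) and the deglycosylating enzyme gene NGLY1 (-0.51 ± 0.06 SE) had the largest falls of that list. Whether SEL1L3 acts in degradation was not tested here.

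The translocon, signal peptidase and SRP list had 6 of 22 lower and 7 higher, near the shares among all genes tested. The balance depended on the scaling, with 6 lower and 12 higher under library totals alone and 9 lower and 6 higher with the GC and length offset. SRPRB, a subunit of the SRP receptor, was highest (0.75 ± 0.07 SE). Others of that list named by size were SRP19 (0.40), SSR4 (-0.35) and SEC61G (-0.35). Of 31 N-glycosylation and glycan-trimming genes 12 fell and 5 rose, but with library totals alone 7 fell and 12 rose, and under DESeq2 11 fell and 2 rose. PRKCSH, a subunit of the glucosidase that prepares glycoproteins for calnexin, fell by 0.38 on the log2 scale, as did OSTC of the oligosaccharyltransferase (0.38), and the glucosyltransferase genes ALG10 (0.53 ± 0.12 SE) and the mannosyltransferase gene ALG11 (0.51 ± 0.12 SE) rose. Of 25 COPII and export genes 7 fell (28%) and 6 rose (24%), also near the shares among all genes tested. With library totals alone 6 of them fell and 14 rose. LMAN1 (ERGIC-53), a cargo receptor for glycoproteins, averaged 441 ± 9.30 CPM in shSIRT1 against 687 ± 1.66 CPM in shfirefly (SD, n = 3 each; log2 fold change -0.64 ± 0.03 SE). KDELR3, a receptor that returns escaped ER proteins, fell by 0.62, while SEC23IP (0.43) and SAR1B (0.30) rose, the last not with the GC and length offset (adjusted p = 0.050).

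Among 8 transcripts reported as substrates of IRE1-dependent decay 5 fell and 1 rose. COL6A1 fell by 1.12 and SPARC by 0.70 on the log2 scale, and SCARA3 rose (0.45 ± 0.04 SE). Of 9 ER-phagy receptor genes 4 fell, led by CALCOCO1 (-0.85 ± 0.05 SE) and RETREG2 (-0.60 ± 0.05 SE), and 5 did not pass, although 1 rose under DESeq2 and with library totals alone, and with the GC and length offset 7 fell and 1 rose. Of 17 ER calcium genes 9 fell and 3 rose, against 7 and 6 with library totals alone, with the IP3 receptor ITPR1 (-0.76 ± 0.05 SE) and the ER calcium-binding protein RCN3 (-0.70 ± 0.04 SE) lowest and the channel gene ORAI1 (0.31 ± 0.07 SE) highest. ITPR2 rose by 0.28 (adjusted p = 0.038), a call lost with the GC and length offset (adjusted p = 0.071) and on leaving out 4 of the 6 libraries in turn (0.084 to 0.12). The proteases that cut ATF6 parted: MBTPS2 had 73.3 ± 2.13 CPM in shSIRT1 against 46.2 ± 1.59 CPM in shfirefly (SD, n = 3 each; 0.67 ± 0.05 SE on the log2 scale), and MBTPS1 fell by 0.27 (SE 0.04).

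**Figure D5:**
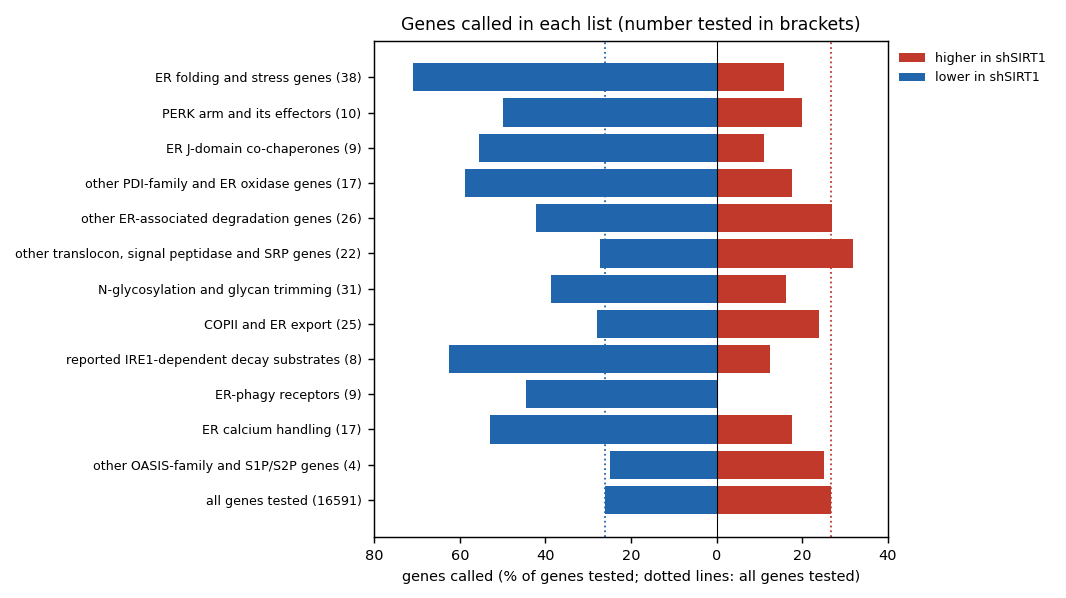
Share of tested genes called lower (left, blue) or higher (right, red) in shSIRT1, for the 38 ER folding and stress genes, each of the 11 further lists and all genes tested (dotted lines, 26.0% lower and 26.8% higher). The 38 genes have 71.1% lower and 15.8% higher, and the translocon list lies near the dotted lines.

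Read sharing limits some of these values. In the annotation 13 of the 39 genes share bases with a same-strand gene and 21 with an opposite-strand gene, and whether counting used the strand is not given in the sources used here. The same-strand neighbours with more than 1 CPM were TNXB at ATF6B, SEC22A at PDIA5 and FAU at SYVN1, the last with 60.6 CPM in shSIRT1 against 62.3 CPM in shfirefly.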

How the data were processed

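Per the labels' protocols, TRI reagent RNA went into TruSeq stranded mRNA libraries. Trimmomatic, STAR, DESeq2 and GRCh38 are named, per the submitters' processing notes; their versions, the read counter and the annotation are not stated in what was used here. The deposited table holds the authors' raw counts per gene, per the file headers, and only these counts entered tests. It also holds the authors' rounded normalized counts and fit statistics (score), linear fold change (ratio), log2 fold change, p-value and adjusted p-value, per the file headers, none of which is reported here.

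Genes were kept by filterByExpr (16591 tested), scaled by TMM (factors 1.038 to 1.048 in shSIRT1 and 0.948 to 0.970 in shfirefly) and tested with edgeR 4.0.16 (R 4.3.3) by the robust quasi-likelihood F test on group, with Benjamini-Hochberg adjustment over all genes tested. A call is an adjusted p under 0.05. SE was taken as the size of the log2 change over the root of its F statistic, and 95% intervals use the normal approximation. The common biological coefficient of variation was 5.41%. Chi-square per gene was 2.82 to 6.10 between libraries of a group and 57.4 to 89.7 between groups. Each library was taken as 1 replicate because the design text calls the samples biological replicates. The chi-square values do not show how the replicates were raised. Exon lengths and gene overlaps were read from GENCODE 29 (GRCh38), which may not be the annotation behind the deposited counts.

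Alternatives were RLE factors, library totals alone, DESeq2 1.42.0, no filter on low counts, a filter at 1 CPM in 3 libraries, a block for replicate number, an offset for GC content and length, and leaving out each library. The offset used the GC content and length of each gene's longest transcript. The genes and lists were chosen with earlier results of these data known. All members are named. From each further list up to 2 higher and 2 lower called genes with the largest change and a mean of at least 5 CPM are named. EIF2AK3, PPP1R15A, CHAC1, ATF4, VCP and UFD1 are named besides. Protein sequences were not analysed here.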

Additional observations from a re-analysis of the deposited data

How the results depend on the processing

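The count of ER genes that fell (27) was 20 to 27 under every alternative run, and the count that rose (6) was 3 to 8. Leaving out 1 library in turn gave 24 to 27 lower and 3 to 5 higher, with 3 higher without shSIRT1 replicate 2. DESeq2 gave 25 lower and 5 higher, and library totals alone 20 and 8. All genes tested gave 4449 higher and 4311 lower, and 6225 and 3021 with library totals alone. RLE factors and the filter at 1 CPM changed no call among the 38 genes. Signs turned for genes near 0: CREB3L2 to 0.012 and SERP1 to 0.096 with library totals alone, DERL2 to -0.044 with the GC and length offset, and SERP1, which ranged from -0.070 to 0.014 on leaving out 1 library. The cause was not tested. The deviations of same-numbered libraries from their group means correlated at -0.010, -0.067 and 0.132, and shSIRT1 replicate 1 correlated best with shfirefly replicate 2 (0.171). Deviations from a mean of 3 libraries constrain each other, so these values cannot settle whether the numbers mark a pairing. With the replicate block 27 ER genes fell and 6 rose, with no call changed among the 38, and 4711 and 4465 of all genes were higher and lower. At about 3 CPM TXNDC5 and ERO1B had intervals of the log2 difference from -0.61 to 0.13 and from -0.60 to 0.044. The main fit does not tell changes within these intervals apart, and ERO1B was called lower with the GC and length offset.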
